A study of Mus musculus with 12 samples.

Results

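The interferon-stimulated genes described here are 39 genes of the mouse retina, taken from a gene table of 32867 genes by their symbols, and all 39 were found in it. The rule for the list is the gene symbol and uses no measured value, but the list was chosen with earlier results of these data known. Total retinal RNA was sequenced from 12 samples in 4 groups of 3: C3H wild-type mice, Pde6b rd1 (postnatal day 13), Pde6b rd10 (day 23) and Prph rd2 (day 29), the ages that the study took as the peaks of photoreceptor death. Pde6b rd1 and Pde6b rd10 both affect the rod phosphodiesterase subunit, as a retroviral insertion and a point mutation, and Prph rd2 affects the outer segment protein peripherin 2. The 3 C3H samples carry the days 13, 23 and 29, 1 each, and every model was set against all 3.

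The groups differ in more than the mutation. The study's methods place Pde6b rd10 on C57Bl6/J and Pde6b rd1 on C3H, whereas for Prph rd2 the labels give C57BL6/J and the methods C3H. Of 24 genes with at least 50 counts in every C3H sample and at most 3 in every Pde6b rd10 sample, 23 had at least 50 counts in every Prph rd2 sample and 17 in every Pde6b rd1 sample. Animals were used irrespective of sex, and the counts show that the groups were not balanced. Xist, transcribed from the inactive X chromosome, had 8 to 10 counts in the C3H samples and 64914 to 83716 in Pde6b rd1. The summed counts of 4 Y-linked genes were 5401 to 7194 in C3H and 0 in every Pde6b rd1 sample. Every Prph rd2 and Pde6b rd10 sample held both. In Prph rd2 Xist had 37187 to 47452 counts and the Y-linked genes 2607 to 3180. In Pde6b rd10 these were 13428 to 18861 and 3689 to 5537. Mutation, strain, sex and age therefore cannot be told apart in some of these comparisons. The study calls the samples of a group biological replicates, but whether each came from a separate animal is not stated. Samples that hold both Xist and Y-linked RNA may pool animals of both sexes, and whether the samples of a group are independent was not tested. The p-values measure only the spread between these samples. The reads on genes numbered 17049495 to 24755890 per sample, where 3 counts correspond to 0.121 to 0.176 CPM, the count scaled to library size. Of the targeted genes, Pde6b had 4937 to 6253 counts in Pde6b rd1 against 24335 to 29129 in C3H, and Prph2 had 30656 to 34634 in Prph rd2 against 52768 to 65756. Prph2 was also lowered in Pde6b rd1, at 29041 to 35541 counts from smaller libraries. Its log2 fold change against C3H was -1.06 in Prph rd2 and -0.83 in Pde6b rd1. A fall of Prph2 is therefore not particular to Prph rd2, although it was deeper there.

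Interferons are secreted when a cell senses foreign or misplaced nucleic acid. Type I interferons act through the receptor IFNAR and the kinases JAK1 and TYK2 on a complex that holds STAT2 and IRF9 and binds the interferon-stimulated response element (ISRE). Interferon gamma acts through another receptor and on another DNA element, the gamma-activated site (GAS). The genes that follow encode antiviral enzymes, GTPases that coat intracellular pathogens, nucleic acid sensors and the transcription factors of the pathway itself. In the retina and brain, microglia, glia and neurons can all carry this response.

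Many of the promoters of these genes hold a match to the elements named above, which the choice of the list did not use, and a few are shown for the matches they carry. Sequences are from RefSeq on GRCm38.p6, from 250 bases before to 50 after the annotated start, and 29 of the 39 members matched a promoter by symbol. The others are Usp18, Oas2, Mx1, Mx2, Gbp4, Gbp6, Iigp1, Ifi27, Dhx58 and Rtp4. The ISRE was searched as GAAA, any 2 bases and GAAA, which reads TTTC, any 2 bases and TTTC on the other strand, and GAS as TTC, any 3 bases and GAA, which reads alike on both strands. Matches could overlap each other. The stretches below lie upstream of the start and read 5′ to 3′ on the strand of the gene, with the matched bases in capitals.
Ifit1, chr19:34640770-34640828, plus strand: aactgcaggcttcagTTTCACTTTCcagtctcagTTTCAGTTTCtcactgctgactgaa
Ifit3, chr19:34583358-34583431, plus strand: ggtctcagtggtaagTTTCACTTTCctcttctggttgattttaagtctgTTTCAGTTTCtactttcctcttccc
Isg15, chr4:156200860-156200911, minus strand: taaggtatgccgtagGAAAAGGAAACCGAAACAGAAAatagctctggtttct
Rsad2, chr12:26456548-26456587, minus strand: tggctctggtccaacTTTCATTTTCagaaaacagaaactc
Gbp2, chr3:142620589-142620628, plus strand: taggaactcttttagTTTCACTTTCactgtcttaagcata
Igtp, chr11:58199496-58199546, plus strand: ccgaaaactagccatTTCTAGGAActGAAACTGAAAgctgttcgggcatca
Irf1, chr11:53769909-53769947, plus strand: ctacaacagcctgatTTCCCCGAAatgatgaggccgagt

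Ifit1 and Ifit3 each show 2 ISRE matches, Isg15 has 3 that overlap, Rsad2 and Gbp2 have 1, Igtp has a GAS match beside an ISRE match, and Irf1 has a GAS match alone. An ISRE match lay in the promoter of 19 of the 29 members, or 65.5%, beside 3.99% of the 27025 genes with a promoter in the same table. For GAS the share was 12 of 29, or 41.4%, beside 9.55% of those genes. Neither element was matched in Ifi44, Irf7, Irf9, Oasl2, Trim25 and Xaf1. The 10 members without an ISRE match in this window were Ifi35, Ifi44, Ifit2, Irf1, Irf7, Irf8, Irf9, Oasl2, Trim25 and Xaf1. A match says only that these letters are present.

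**Figure D1:**
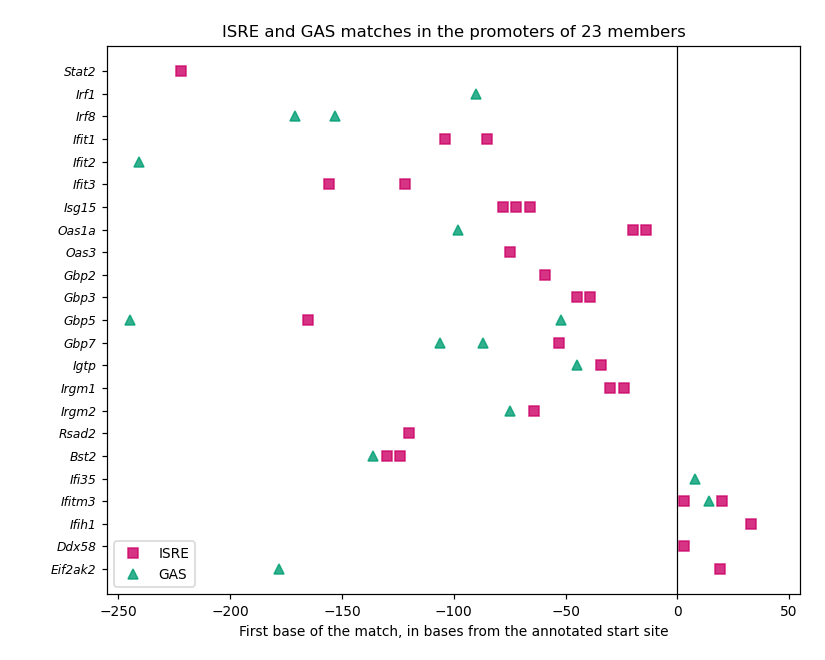
Position of each ISRE match (squares) and GAS match (triangles) in bases from the annotated start site, for the 23 members with a match in the 300 bases searched. Isg15 shows 3 neighbouring squares. The matches of Ifih1, Ddx58, Ifitm3 and Ifi35 and the ISRE match of Eif2ak2 lie downstream of the start.

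In Pde6b rd10, all 39 members were called higher than in C3H. A gene was called when edgeR's quasi-likelihood test gave it a p under 0.05, adjusted by Benjamini-Hochberg across the whole table, together with a change of at least 1.5-fold. By the same rule 15.4% of the 18704 genes tested were called higher and 7.67% lower. The fold changes ran from 1.84 for Stat2 to 96.1 for Ifit1, with a median log2 fold change of 3.32 over the members and of -0.00248 over all genes tested. In each of the 39 genes the 3 Pde6b rd10 samples lay above the 3 C3H samples in CPM, which held for 30.4% of all genes tested. The filter on low counts limits these numbers. For 14 members the counts of C3H and Pde6b rd1 were too few for a test between those groups. These passed the filter here through their Pde6b rd10 counts, so that a higher value was nearly fixed in advance. Without that filter all 39 were also called higher, beside 3502 of 30949 genes. The gene count and its normalization measure RNA of the whole retina, in which fewer cells of a type and less RNA per cell cannot be told apart.

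Neither of the other models shared this change. In Pde6b rd1, 25 members had enough counts to be tested, none was called higher and 11 were called lower. Of all 18310 genes tested there, 8.35% were called higher and 5.43% lower. In Prph rd2, 33 members were tested, none was called higher and only Irf7 was called lower, beside 1.06% of 18581 genes called higher and 1.01% lower, 2.07% in all. At an unadjusted p under 0.05 without a fold minimum, 4 members lay higher in Prph rd2 and 3 lower. In Pde6b rd1 no member lay higher at that threshold and 14 lay lower. The share of all genes at that threshold was not counted, so whether these numbers stand out was not tested. DESeq2 also called no member higher in either model.

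The difference between the models was tested as well, in a fit of all 12 samples. Set against Pde6b rd1, all 39 members were called higher in Pde6b rd10, where 17.1% of the 19616 genes tested were called higher. Set against Prph rd2, all 39 were again called higher, beside 12.8% of genes called higher and 5.58% lower. The median log2 differences of the members were 3.82 and 3.39. These contrasts and those against C3H share samples, so that they do not count as separate evidence. The limit from the filter on low counts holds here too.

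**Figure D2:**
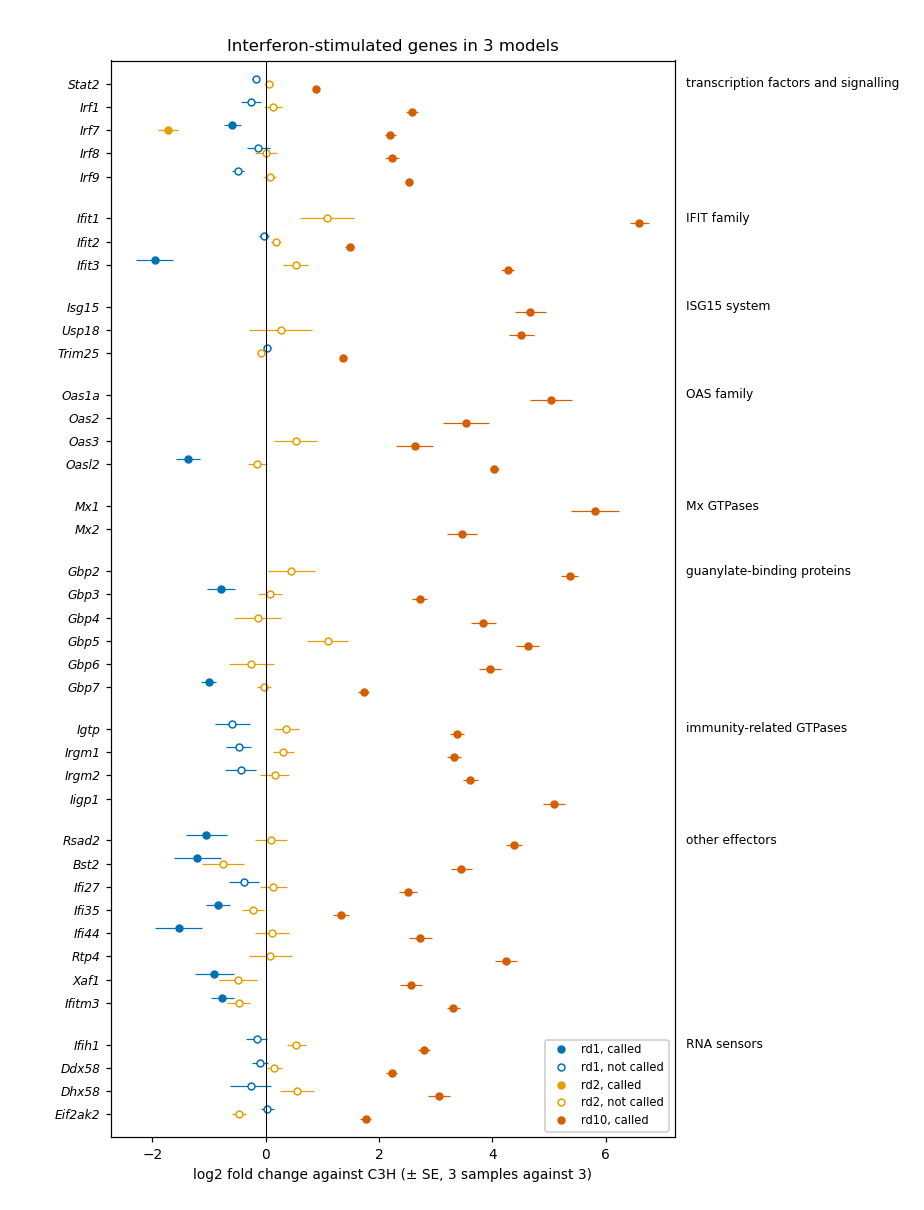
Log2 fold change against C3H (x axis, with SE) of each member in the 3 models, grouped by role. Filled points were called and open points were not, and members without a point in a model had too few counts to be tested there. All Pde6b rd10 points lie right of 0, and the filled points of the other models lie left of it.

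On the FPKM scale, which divides counts by gene length and depth and so allows levels of different genes to be compared, the members summed to 34.1 ± 0.402 (SD, n = 3) in C3H and to 242 ± 1.82 in Pde6b rd10, 7.11 times the C3H level. The sum was 26.7 ± 0.483 in Pde6b rd1 and 33.9 ± 0.928 in Prph rd2. In C3H the members with the highest level were Stat2 at 5.01 FPKM, Ifitm3 at 4.02 and Trim25 at 3.75, and 10 members were above 1 FPKM. In Pde6b rd10 the order was different, with Ifitm3 at 42 FPKM, Ifit3 at 19.2, Bst2 at 12.9 and Ifit1 at 12 in front, and 34 members above 1 FPKM. Ifitm3 alone made up 17.3% of the summed level there, and 11.8% in C3H. Bst2 and Ifit1, neighbours in that order, met at their ends, with samples from 12.7 to 13.4 FPKM for Bst2 and from 11.6 to 12.7 for Ifit1.

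Among the transcription factors, all 5 members rose in Pde6b rd10, with log2 fold changes between 0.88 and 2.58. Irf9, the DNA-binding partner of STAT2 in the ISRE complex, had 168, 218 and 164 counts in C3H, 131, 114 and 130 in Pde6b rd1, 256, 206 and 202 in Prph rd2 and 1260, 985 and 1029 in Pde6b rd10. The Pde6b rd10 samples stood apart from all others, by a log2 fold change of 2.53 ± 0.0697 (SE) against C3H (adjusted p = 3.22e-17, edgeR). Some reads of Irf9 may belong to Rnf31, whose exons overlap it on the same strand and whose own log2 fold change in Pde6b rd10 was 0.49. Irf1, induced by interferon gamma through its GAS element, rose by 2.58 on the log2 scale, and Irf8, a factor of microglia and other myeloid cells, by 2.22. Stat2 had the smallest change of the list, 0.88 ± 0.0549 on the log2 scale, although its level in C3H was the highest.

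Irf7 was the single member called in all 3 models, and in both directions. It encodes a transcription factor that amplifies type I interferon production and is itself interferon-induced, and lies at chr7:141262706-141266481 on the minus strand of GRCm38. Irf7 had 123, 132 and 126 counts in C3H, 74, 74 and 95 in Pde6b rd1, 33, 55 and 46 in Prph rd2 and 721, 556 and 540 in Pde6b rd10. The 4 groups did not overlap. Against C3H the log2 fold change was -1.72 ± 0.176 in Prph rd2 (adjusted p = 1.87e-05, edgeR), -0.59 ± 0.146 in Pde6b rd1 (adjusted p = 0.00202) and 2.2 ± 0.0891 in Pde6b rd10 (adjusted p = 1.78e-14). In Prph rd2 the call held in every alternative, with log2 values between -1.89 and -0.80. In Pde6b rd1 it was close to the 1.5-fold limit and was lost without C3H replicate 1 (-0.57), C3H replicate 3 (-0.55) or Pde6b rd1 replicate 1 (-0.44). Exons of Phrf1 overlap Irf7 on the other strand, and Phrf1 differed from C3H by -0.05 on the log2 scale in Prph rd2 (adjusted p = 0.57, edgeR). The strand setting of the counting is not stated.

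The IFIT proteins bind viral RNA and keep it from being translated. Ifit1 showed the largest change of the list in Pde6b rd10, with 775, 575 and 675 counts against 2, 8 and 10 in C3H (6.59 ± 0.171 on the log2 scale). Pde6b rd1 samples had 2, 2 and 4 counts. Those of Prph rd2 had 17, 10 and 22, which overlapped C3H in CPM, and their log2 value of 1.08 ± 0.485 was not called (adjusted p = 0.193, edgeR).

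Ifit3 was called in opposite directions in Pde6b rd10 and Pde6b rd1. It had 30, 36 and 40 counts in C3H, 12, 6 and 8 in Pde6b rd1, 60, 48 and 69 in Prph rd2 and 830, 602 and 692 in Pde6b rd10. The log2 fold change was 4.27 ± 0.111 in Pde6b rd10 (adjusted p = 1.15e-17, edgeR) and -1.96 ± 0.322 in Pde6b rd1 (adjusted p = 2.35e-05), with no overlap between the groups in either case. In Prph rd2 the value of 0.53 was not called (adjusted p = 0.161), except when Prph rd2 replicate 2 was left out, where it was 0.66 (adjusted p = 0.0499). Windows of 75 bases of the Ifit3 transcripts recur in other genes in 41.1% of cases, all in Ifit3b, so reads may be split between these copies. Ifit3b itself differed by 3.82 in Pde6b rd10 and by -1.77 in Pde6b rd1 on the log2 scale. Ifit2 had one of the higher C3H levels, 3.58 FPKM, and the smallest change of this family in Pde6b rd10, 1.48.

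The ISG15 system attaches the small ubiquitin-like protein ISG15 to other proteins. Isg15 had 3, 3 and 5 counts in C3H, 1, 0 and 0 in Pde6b rd1, 5, 7 and 5 in Prph rd2 and 120, 90 and 90 in Pde6b rd10. In Pde6b rd10 this was 25.5-fold over C3H. The ratio of Pde6b rd1 to C3H rests on 1 count against 11 and was 0.093, with an exact 95% interval from 0.00216 to 0.64 that covers counting error only. Usp18, which removes ISG15 and blocks the receptor IFNAR, rose by 4.51 on the log2 scale in Pde6b rd10. Trim25, a ubiquitin ligase acting on the sensor RIG-I, was already well expressed, with 437, 501 and 434 counts in C3H, 517, 375 and 456 in Pde6b rd1, 487, 502 and 508 in Prph rd2 and 1416, 1053 and 1174 in Pde6b rd10. Its log2 fold change in Pde6b rd10 was 1.36 ± 0.0577, among the smallest of the list.

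The oligoadenylate synthetases sense double-stranded RNA and activate RNase L. Oasl2 had the smallest p of all members in Pde6b rd10 (adjusted p = 1.74e-19, edgeR), with 1409, 1044 and 1123 counts against 63, 85 and 63 in C3H and a log2 fold change of 4.03 ± 0.0815. In Pde6b rd1 it had 37, 23 and 18 counts, below every C3H sample, and a log2 fold change of -1.37 ± 0.216 (adjusted p = 1.4e-05). The Prph rd2 counts of 80, 69 and 70 overlapped those of C3H. Oas1a had 6, 2 and 0 counts in C3H, 0, 1 and 1 in Pde6b rd1, 0, 7 and 11 in Prph rd2, and 118, 73 and 92 in Pde6b rd10. The ratio of Pde6b rd1 to C3H, 0.256, had an exact 95% counting interval from 0.0265 to 1.28. Oas1g holds 47.6% of the 75-base windows of Oas1a. Oas2 and Oas3 stayed the faintest members even in Pde6b rd10, at 0.478 and 0.351 FPKM, and these 2 genes lost their call under limma on log2(FPKM + 1).

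The Mx proteins are dynamin-like GTPases that block viral replication. Mx1 had 0, 1 and 3 counts in C3H, 3, 0 and 0 in Pde6b rd1, 4, 5 and 4 in Prph rd2 and 116, 55 and 84 in Pde6b rd10. From 255 counts against 4, the ratio of Pde6b rd10 to C3H was 61.6, with an exact 95% counting interval from 23.8 to 228. For Prph rd2 the ratio to C3H was 2.82, with an interval from 0.87 to 11.9, and the counts of C3H and Pde6b rd1 allow no ratio. Mx2, which the annotation calls a polymorphic pseudogene in the reference strain, rose by 3.46 on the log2 scale in Pde6b rd10. Neither Mx gene could be tested in the other models.

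**Figure D3:**
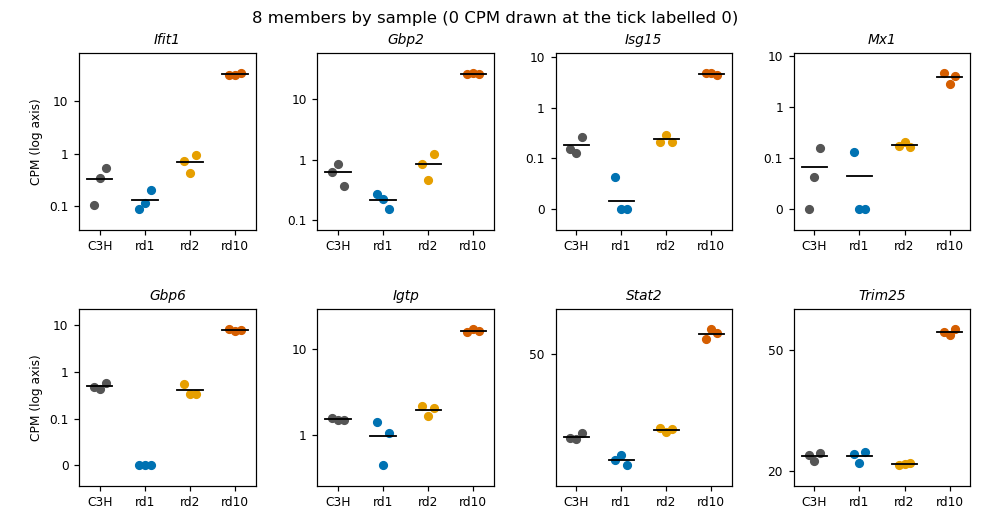
CPM of 8 members in each sample (log axis, 3 points per group, bar at the mean, 0 drawn at the tick labelled 0). In every panel the Pde6b rd10 points lie above all others, and Gbp6 is at 0 in the 3 Pde6b rd1 samples.

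The guanylate-binding proteins are large GTPases, strongly induced by interferon gamma, that attack the vacuoles of intracellular pathogens. All 6 rose in Pde6b rd10, by 1.73 to 5.36 on the log2 scale. Gbp2 led with 637, 502 and 529 counts against 12, 20 and 7 in C3H (5.36 ± 0.149, adjusted p = 3.59e-17, edgeR). Pde6b rd1 samples had 6, 4 and 3 counts, and those of Prph rd2 20, 11 and 30. Gbp5 rose by 4.62, and its value in Prph rd2 of 1.09 ± 0.361 was not called (adjusted p = 0.0728), although the counts of 18, 29 and 20 lay above the 11, 10 and 6 of C3H. With all 12 samples in 1 fit Gbp5 was called in Prph rd2.

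Gbp7 and Gbp3 were called lower in Pde6b rd1. Gbp7 had 127, 172 and 119 counts in C3H, 77, 54 and 68 in Pde6b rd1, 162, 138 and 169 in Prph rd2 and 571, 378 and 484 in Pde6b rd10. Its fall in Pde6b rd1 had the smallest p of the list there (-1.01 ± 0.137, adjusted p = 1.76e-06, edgeR), without overlap. For Gbp3 the counts were 61, 50 and 42 in C3H, 25, 34 and 26 in Pde6b rd1, 69, 51 and 67 in Prph rd2 and 429, 278 and 342 in Pde6b rd10. The Pde6b rd1 value of -0.78 ± 0.245 (adjusted p = 0.0121) was not called without C3H replicate 1 (-0.59) or Pde6b rd1 replicate 1 (-0.61).

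Gbp6 was at 0 in all 3 Pde6b rd1 samples, beside 9, 10 and 11 counts in C3H, 13, 8 and 8 in Prph rd2 and 200, 137 and 154 in Pde6b rd10. Against a floor of 3 counts per sample it was at least 3.25-fold lower in Pde6b rd1 than in C3H, and at least 50.8-fold lower than in Pde6b rd10. Gbp6 and Gbp4 lie on chromosome 5, 3.095 and 3.249 Mb from Pde6b, the gene that differs between these lines. The neighbour Gbp10, looked at after its values were seen, had 0 counts in every C3H and Prph rd2 sample, 4, 3 and 2 in Pde6b rd1 and 14, 16 and 21 in Pde6b rd10. Of the 75-base windows of Gbp6, 67.3% occur in other transcripts, Gbp10 among them, so the level of either copy alone is uncertain. The sum of both was 9 to 11 counts in C3H, 2 to 4 in Pde6b rd1 and 153 to 214 in Pde6b rd10. Another relative, Gbp2b, also chosen after its values were seen, went against the family in Pde6b rd10. It had 0 counts in the 3 Pde6b rd10 samples, 15, 20 and 14 in C3H and 32, 21 and 18 in Prph rd2. Whether reference sequence or strain had a part in these values was not tested.

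The immunity-related GTPases act with the guanylate-binding proteins, and all 4 rose in Pde6b rd10 by 3.32 to 5.09 on the log2 scale. Irgm1 had 57, 58 and 40 counts in C3H, 38, 26 and 43 in Pde6b rd1, 79, 67 and 75 in Prph rd2 and 676, 468 and 472 in Pde6b rd10 (3.32 ± 0.117, adjusted p = 1.68e-15, edgeR). Iigp1 showed the largest change of the family, 5.09 ± 0.193. In Pde6b rd1 none of the 3 that were tested was called, with log2 values between -0.60 and -0.44. Single libraries mattered there: Igtp was called lower without Pde6b rd1 replicate 1 (-0.97) and Irgm1 without Pde6b rd1 replicate 3 (-0.64). Exons of Igtp and Irgm2 overlap on the same strand.

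Of the RNA sensors, Ifih1, known as MDA5, had 50, 75 and 71 counts in C3H, 60, 58 and 50 in Pde6b rd1, 90, 120 and 118 in Prph rd2 and 548, 410 and 450 in Pde6b rd10. Its log2 fold change in Pde6b rd10 was 2.79 ± 0.109 (adjusted p = 1.07e-14, edgeR), and in Prph rd2 0.54 ± 0.17, which was not called (adjusted p = 0.0637). Ddx58, which encodes RIG-I, and Dhx58, its relative LGP2, rose by 2.22 and 3.05 in Pde6b rd10. Eif2ak2, the kinase PKR that stops translation, rose by 1.76. In Prph rd2 it lay below C3H in all samples, by -0.48 ± 0.122 (adjusted p = 0.0229), under the 1.5-fold limit. None of the 4 sensors was called in Pde6b rd1, with log2 values between -0.27 and 0.03.

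The remaining 8 effectors rose in Pde6b rd10 by 1.33 to 4.38 on the log2 scale, and 6 of them were called lower in Pde6b rd1. Rsad2, or viperin, makes a chain-terminating nucleotide. It had 16, 24 and 21 counts in C3H, 9, 12 and 7 in Pde6b rd1, 21, 26 and 28 in Prph rd2 and 503, 378 and 438 in Pde6b rd10. The log2 fold changes were 4.38 ± 0.133 in Pde6b rd10 (adjusted p = 1.55e-16, edgeR) and -1.05 ± 0.362 in Pde6b rd1 (adjusted p = 0.0219).

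Ifitm3, which blocks the fusion of viruses with endosomes, had 50, 74 and 51 counts in C3H, 34, 35 and 29 in Pde6b rd1, 58, 44 and 42 in Prph rd2 and 671, 589 and 536 in Pde6b rd10. It lay below C3H in all Pde6b rd1 samples (-0.77 ± 0.208, adjusted p = 0.00433, edgeR). The Prph rd2 samples also lay below in CPM, but their value of -0.48 ± 0.204 was not called (adjusted p = 0.169). Ifi44 had 19, 17 and 16 counts in C3H and 5, 4 and 8 in Pde6b rd1 (-1.54 ± 0.41, adjusted p = 0.00379), beside 25, 19 and 21 in Prph rd2 and 150, 91 and 120 in Pde6b rd10. Ifi35 had 49, 81 and 49 counts in C3H and 30, 32 and 33 in Pde6b rd1 (-0.84 ± 0.215, adjusted p = 0.00273), beside 52, 56 and 67 in Prph rd2 and 178, 134 and 153 in Pde6b rd10. For both genes Pde6b rd1 did not overlap C3H.

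Bst2, the tetherin that holds budding viruses at the cell surface, had 18, 15 and 32 counts in C3H, 9, 12 and 6 in Pde6b rd1, 16, 13 and 16 in Prph rd2 and 283, 227 and 229 in Pde6b rd10. Its value in Pde6b rd1 was -1.21 ± 0.411 (adjusted p = 0.0201, edgeR), with overlap in CPM, where the highest Pde6b rd1 sample lay just above the lowest of C3H. Xaf1, a regulator of apoptosis, had 13, 39 and 27 counts in C3H, 17, 12 and 11 in Pde6b rd1, 21, 18 and 25 in Prph rd2 and 187, 131 and 166 in Pde6b rd10. It also overlapped C3H in CPM in Pde6b rd1 (-0.91 ± 0.345, adjusted p = 0.0369). These calls rest on few reads. The calls of Rsad2 and Xaf1 were lost without C3H replicate 2 (-1.02 and -0.63), and those of Rsad2, Xaf1 and Bst2 without C3H replicate 3 (-0.97, -0.83 and -0.76), without Pde6b rd1 replicate 1 (-0.93, -1.02 and -1.11) and without Pde6b rd1 replicate 3 (-0.89, -0.80 and -0.99). Xaf1 was also lost without Pde6b rd1 replicate 2 (-0.92). Ifi27 was not called in Pde6b rd1 or Prph rd2, and Rtp4 was not called in Prph rd2 and had too few counts to be tested in Pde6b rd1.

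**Figure D4:**
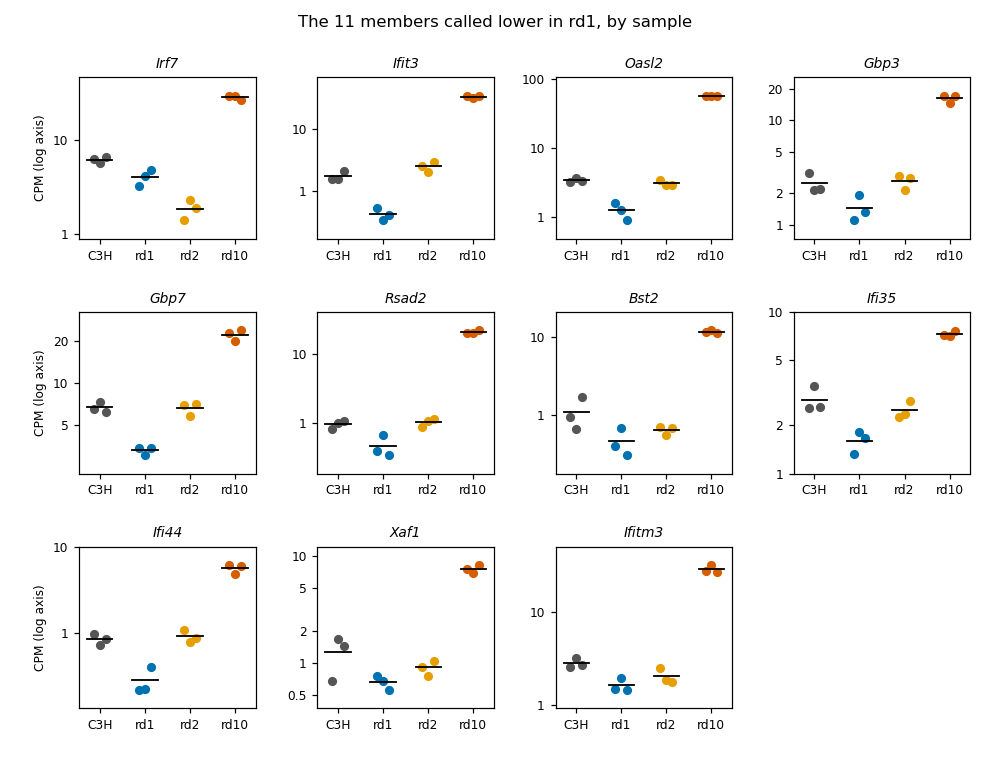
CPM by sample (log axis, 3 points per group, bar at the mean) of the 11 members called lower in Pde6b rd1. Ifit3, Oasl2 and Gbp7 separate Pde6b rd1 from C3H clearly, Bst2 and Xaf1 overlap, and Pde6b rd10 lies above all other groups in every panel.

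Over the list, the fall in Pde6b rd1 was shallow compared with the rise in Pde6b rd10. The median log2 fold change of the 25 tested members was -0.49, beside -0.0109 for all genes tested, and 23 of the 25 estimates were negative, as were 51.5% of all estimates. In 15 of the 25 the groups did not overlap, with Pde6b rd1 below, which was so for 28.6% of all genes tested. The members tested passed the filter on low counts in part through their C3H level, so that this count does not speak for the 14 members left out. In a fit without that filter 35 of 39 estimates were negative, beside 47.9% of all genes. The direction of the 11 called members was the same in every alternative, though by very little for some. The weakest log2 values were -0.0097 for Xaf1, against the day 13 C3H sample alone, -0.115 for Ifi44 and -0.132 for Rsad2. Neither age nor sex was matched in the comparison with all 3 C3H samples. Against the day 13 C3H sample alone, 5 of the 11 were called lower, namely Irf7, Ifit3, Oasl2, Gbp3 and Gbp7, and so was Rtp4. The spread in that fit came from the 3 Pde6b rd1 samples alone, and the lone C3H sample was assumed to vary like them. Age was matched in that fit, but sex and mutation cannot be told apart by it. The summed FPKM in C3H was 34.1 at day 13, 34.5 at day 23 and 33.6 at day 29, beside 26.4 to 27.2 in Pde6b rd1. These are single samples per day, and the sum hides members that differ between them. Xaf1 had 13, 39 and 27 counts in these samples and Bst2 18, 15 and 32.

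Members known mainly from interferon gamma, which are Irf1, Irf8, the GBP and the immunity-related GTPase genes, were compared with the other 27 by counts only, and these 12 also respond to type I interferons. In Pde6b rd10 all of both classes rose, with median log2 fold changes of 3.49 and 3.05. In Pde6b rd1, 2 of 7 tested genes of the first class and 9 of 18 of the other class were called lower. In Prph rd2 these numbers were 0 of 11 and 1 of 22.

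The pathway around the members was read from a list of 38 genes, of which 32 were in the table, after the older symbol Mb21d1 was matched to Cgas. In Pde6b rd10, 15 of the 28 tested were called higher and none lower. In Pde6b rd1 only Irf5 was called (0.94, higher), and in Prph rd2 none of 26. The ligands were not detectable at this depth: Ifnb1, Ifng, Ifna2 and Ifne had between 0 and 2 counts in every sample. Of the receptors, Ifnar1, Ifngr1 and Ifngr2 lay within 0.1 of C3H on the log2 scale in Pde6b rd10, whereas Ifnar2 (0.72), the interferon lambda receptor Ifnlr1 (3.11) and its partner Il10rb (1.26) rose. The kinases Jak1, Jak2 and Tyk2 were not called (-0.12, 0.27 and 0.06). Among inducers and sensors, 8 of 13 rose, with Tlr7 (3.19) and Tlr9 (3.10), receptors for RNA and DNA in endosomes, in front. Tmem173, which encodes the DNA-pathway adaptor STING, rose by 1.56, and Cgas, its upstream sensor, was not called (0.70, adjusted p = 0.0805, edgeR). The feedback inhibitor Socs3, which also answers cytokines other than interferons, rose by 4.20 and Socs1 by 1.33.

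Markers of several other cell types moved with the members in Pde6b rd10, though not those of all. Of 16 microglia markers, 14 were called higher there, and their summed level was 154 to 172 FPKM against 50.7 to 53.2 in C3H. P2ry12, a marker of resting microglia, was not among them (-0.36), nor was Sall1 (0.41). In Pde6b rd1 the microglia sum was 52.2 to 54.4 FPKM, with 2 of 15 tested markers called higher, Trem2 and Fcrls, and in Prph rd2 it was 45.9 to 48.7, with Tmem119 called higher and Fcrls and Sall1 lower. In Pde6b rd1 the microglia sum was thus not lower than in C3H, whereas that of the members was.

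Monocyte and neutrophil markers summed to 3.19 to 3.8 FPKM in Pde6b rd10 and to 0.0919 to 0.333 in C3H, where Plac8, S100a9 and Cxcr2 were at 0. Ccr2, the receptor that brings monocytes into tissue, had 169, 103 and 140 counts in Pde6b rd10 and at most 1 in any other sample. The 8 T and NK cell markers summed to 0.981 to 1.27 FPKM in Pde6b rd10 and 0.141 to 0.283 in C3H, with 35, 27 and 31 counts of Cd8a in Pde6b rd10, while Cd3d, Cd3e and Cd3g had at most 4 counts in any sample. The 4 B cell markers summed to 0.422 to 0.589 FPKM there and to 0.0246 to 0.272 in C3H. Markers of reactive glia, such as Gfap, rose in 5 of 5 cases, from 10.4 to 12 FPKM in C3H to 223 to 235.

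Of 7 endothelial markers, none was called higher in Pde6b rd10 and Kdr was called lower (-0.60). Flt1 lay higher by 0.56 ± 0.0443 on the log2 scale, under the 1.5-fold limit (adjusted p = 1.07e-09, edgeR). The 7 summed to 71.2 to 77.1 FPKM in Pde6b rd10, against 86.7 to 88.9 in C3H. Rod markers summed to 4600 to 4860 FPKM in Pde6b rd10, against 5220 to 5410 in C3H. The 6 Mueller glia markers summed to 631 to 659 FPKM in Pde6b rd10, against 748 to 765 in C3H. Of these, Vim was called higher (0.76) and Slc1a3 lower (-0.76). In Pde6b rd1 the Mueller glia markers summed to 381 to 387 FPKM, with 3 of 6 called lower, and the rod markers to 2710 to 2770.

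The cone and lens lists also moved with the members, and the pigment epithelium and haemoglobin lists only in part. The 6 cone markers summed to 286 to 290 FPKM in Pde6b rd10, 189 to 190 in C3H and 117 to 120 in Pde6b rd1, with 3 called higher in Pde6b rd10 (Pde6h, Pde6c and Opn1mw) and 4 lower in Pde6b rd1. The 5 pigment epithelium markers summed to 22 to 22.7 FPKM in Pde6b rd10 and 19 to 21.5 in C3H. In Pde6b rd10 only Tyrp1 (1.11) of the 4 tested was called higher, and the median log2 fold change was -0.09. In Pde6b rd1 they summed to 11.3 to 13.2, and Rpe65, Ttr and Lrat were called lower. The 3 lens markers summed to 1.97 to 2.43 FPKM in Pde6b rd10, 0.645 to 0.908 in C3H and 0.0977 to 0.127 in Pde6b rd1. The 4 haemoglobin genes summed to 60.2 to 66.8 FPKM in Pde6b rd10 and 54.7 to 57.7 in C3H. Their sum was 54.9 to 59.1 in Pde6b rd1 and highest in Prph rd2, at 87.2 to 102. In Pde6b rd10, 2 of them were called higher and Hba-a1 was called lower (-0.79). The part of each cell type in the members' levels was not tested.

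**Figure D5:**
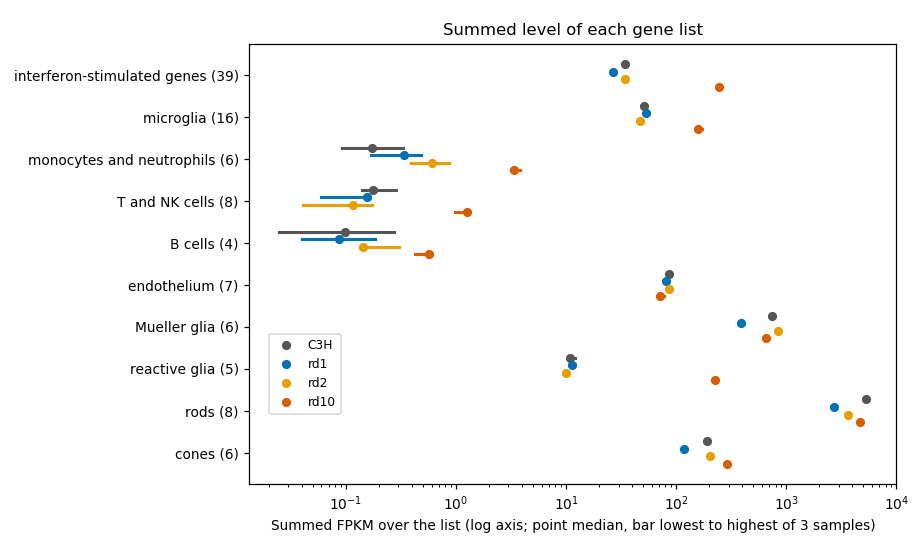
Summed FPKM (log axis) of the 39 members and of marker lists in each group, with the number of genes per list in brackets (point at the median, bar from the lowest to the highest of 3 samples). In Pde6b rd10 the members and the microglia, monocyte, T cell, B cell, reactive glia and cone lists lie to the right of the other groups, and the endothelium list does not.

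Circular RNAs were counted in the same libraries, and 2 of those listed came from members. The Ddx58 circle, chr4:40216354-40226719, had 2 junction reads in 1 Pde6b rd1 sample. The Stat2 circle, chr10:128276485-128278817, had 5 reads over all 12 samples and at most 2 in any. At this depth no change could be detected in either.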

How the data were processed

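Retinal RNA was depleted of ribosomal RNA and sequenced as directional libraries. The deposited gene counts are reads that the authors counted per gene with HTSeq 0.11.2 on GRCm38, without normalization; the labels also name HISAT2. FPKM values in the same deposited table are scaled to gene length and to the depth of each library. Deposited circRNA counts are back-splice junction reads found after TopHat2 2.1.1.

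Models were set against the 3 C3H samples in edgeR 4.0.16 under R 4.3.3, with TMM factors, the filter on low counts and the quasi-likelihood test, on all genes, and Pde6b rd10 with the other models in 1 fit of the 12 samples. The method was tested on simulated counts. Alternatives were the Wald test of DESeq2 1.42.0, log2(FPKM + 1) and log2(FPKM + 0.1) in limma 3.58.1, other filters, scaling and thresholds, a replicate block, the C3H sample of the same day, and each replicate left out. Positions are from the GENCODE annotation of GRCm38 and promoters from RefSeq. Other steps used Python 3.11.15. Intervals and floors of 3 counts cover counting error only, since reads are not independent molecules. Every member is named; all samples are given for members called in Pde6b rd1 or Prph rd2, for the smallest p of each role in Pde6b rd10 and for members at or under the floor in a group. The members and lists were chosen with earlier results of these data known. The circRNA TPM values, which the authors scaled from the junction counts of each sample, were not used. Some genes are not reported here.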

Additional observations from a re-analysis of the deposited data

Results flagged for a closer look

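The change against C3H differed between the models by a test of the difference itself. All 39 members were called higher in Pde6b rd10 when set against Pde6b rd1, and all 39 when set against Prph rd2. For 11 of them the calls against C3H were also opposite, higher in Pde6b rd10 and lower in Pde6b rd1. Since all 39 were higher in Pde6b rd10, these are the same 11 called lower in Pde6b rd1, of which DESeq2 called 7. The share of all genes with opposite calls in these 2 models was not counted. The log2 differences between these 2 models were 6.25 for Ifit3, 5.46 for Rsad2, 5.43 for Oasl2, 4.67 for Bst2, 4.29 for Ifi44, 4.11 for Ifitm3, 3.53 for Gbp3, 3.50 for Xaf1, 2.81 for Irf7, 2.76 for Gbp7 and 2.2 for Ifi35. Irf7 was also called lower in Prph rd2, where the difference to Pde6b rd10 was 3.92. The groups differ in strain, sex and day as well as in mutation, and these cannot be told apart.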

How the results depend on the processing

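In Pde6b rd10 the count of 39 higher members held in every alternative but limma on log2(FPKM + 1), which called 37, also in the contrasts with Pde6b rd1 and Prph rd2. In Pde6b rd1, where 11 members were called lower, DESeq2 and limma on log2(FPKM + 0.1) called 7 of these 11 and limma on log2(FPKM + 1) called 1. The fit with the day 13 C3H sample alone called 6, of which 5 were among the 11. It had fewer samples, and otherwise the cause was not tested. With 1 replicate left out, 8 to 11 members were called lower, of which 6 to 10 were among the 11. Gbp2, Igtp and Irgm1 were gained in some of these fits. In Prph rd2, 1 member was higher with all 12 samples in 1 fit (Gbp5) or without Prph rd2 replicate 2 (Ifit3), so the range was 0 to 1 with a replicate left out, 2 at an unadjusted p (Gbp5 and Ifit1), and 2 were lower without a fold minimum (Irf7 and Eif2ak2). The replicate block left all counts as they were, at 39, 11 and 1. In no comparison did every same-numbered pair of samples correlate above 0.1. Between Pde6b rd10 and Prph rd2, however, replicates 2 and 3 correlated at 0.2255 and 0.2017, and replicate 1 at 0.023. Whether the numbers pair the samples is therefore not settled. Of 3274 single-gene values under the alternatives, 3218 stayed as they were, called or not, 47 lost a call, 9 gained one and 0 turned. The losses were uneven, with 41 in Pde6b rd1 against C3H, where 380 values stayed as they were. In each of the contrasts of Pde6b rd10 there were 2. Genes near 3 counts limit what this depth can show, above all Mx1, Oas1a, Isg15 and Gbp6 in Pde6b rd1.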
